A study of Mus musculus with 29 samples.

Results

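Messenger RNA of 10 genes that produce or remove reactive oxygen was followed in the atria of male mice. They were taken as listed by gene name: Nox4 and Cybb as oxidant sources, Sod1, Sod2, Cat, Gpx1, Gpx4 and Prdx3 as antioxidant enzymes, and Hmox1 and Nqo1 as inducible protective enzymes. All 10 were among the 55292 gene names counted, and all 10 passed the filter on low counts in both experiments (16168 genes tested in the diet experiment, 16482 in the supplementation experiment). The diet experiment held 5 NaV1.5_HFD libraries (transgenic mice labelled NaV1.5 on high-fat diet, HFD), 4 NaV1.5_RD libraries (the same genotype on regular diet, RD), 4 Ctrl_HFD and 4 Ctrl_RD libraries (control mice on each diet). The supplementation experiment held 7 NR and 5 vehicle libraries, all from NaV1.5 mice on high-fat diet, with nicotinamide riboside (NR) or vehicle. Mice were 5 weeks old when the diets began, and the high-fat diet lasted 4 weeks. The labels name no strain, construct or promoter for the transgene, give no dose or route for nicotinamide riboside, and leave unstated whether the libraries of a group are from different mice, so the p-values reflect the spread among libraries, which may be technical.

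NADPH oxidases move electrons from NADPH to oxygen and so form superoxide or hydrogen peroxide. Superoxide dismutases turn superoxide into hydrogen peroxide, which catalase, glutathione peroxidases and peroxiredoxins break down. The transcription factor NRF2, encoded by Nfe2l2 and held back by KEAP1, induces Nqo1, Hmox1 and genes of glutathione synthesis. Glutathione and thioredoxin are kept reduced by NADPH, which is made from NADP, a phosphorylated form of NAD, and nicotinamide riboside is a precursor of NAD. In the atrium, both NOX2 and NOX4 have been described as oxidant sources, NOX2 in phagocytes as well as in heart muscle.

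Total counts ranged from 13189995 to 33061018 per library. Mitochondrially encoded genes took 20.4 to 25.27% of counts in NaV1.5_HFD, 18.82 to 20.62% in NaV1.5_RD, 20.39 to 26.58% in Ctrl_HFD, 18.71 to 21.89% in Ctrl_RD, 15.07 to 18.17% in NR and 14.68 to 17.82% in vehicle. Levels are given as CPM, the count divided by the library total after scaling with TMM factors over all 29 libraries. The atrial markers Nppa and Myl7 were high in every group, with group means of 10240 to 22848 CPM and 3873 to 10154 CPM. A batch is given in the labels. Ctrl_HFD replicate 4 is in batch 2 and every other diet library in batch 1, and NR replicates 1 to 5 are in batch 2 while NR replicates 6 and 7 and all vehicle libraries are in batch 3. With batch in the model, Ctrl_HFD replicate 4 therefore has no weight in the diet contrasts, and for NR 2 libraries are set against 5 vehicle ones.

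None of the 10 genes was called with edgeR in the 6 comparisons of diet, genotype, their interaction and nicotinamide riboside. Genotype pooled over both diets and diet pooled over both genotypes were not among these comparisons. With edgeR's quasi-likelihood F-test and an adjusted p of 0.05 over all genes tested, 0 of 10 were called for diet in NaV1.5 atria (1.13% of all genes), for diet in control atria (0%), for genotype at regular diet (0.0124%), for genotype at high-fat diet (0.0866%), for the interaction of genotype and diet (0%) and for nicotinamide riboside (0.425%). At an unadjusted p of at most 0.05 the genes numbered 1 of 10 for genotype on regular diet (Nqo1) and 0 of 10 in each other comparison, where all genes gave 6.11% for genotype on regular diet, 18.9% for diet in NaV1.5 atria, 8.49% for diet in control atria, 8.05% for genotype at high-fat diet, 2.26% for the interaction and 11.1% for nicotinamide riboside. DESeq2 also called 0 of 10 in all 6 comparisons, and limma-voom with quality weights called 1 (Prdx3, for diet in NaV1.5 atria). The CPM of the groups overlapped for all 10 genes in each of the 5 pairwise comparisons, with NR taken from batch 3 alone and Ctrl_HFD without replicate 4. Among all genes the groups did not overlap for 5.86% (diet in NaV1.5 atria), 10.2% (diet in control atria), 3.39% (genotype on regular diet), 5.39% (genotype on high-fat diet) and 14.0% (NR of batch 3 and vehicle).

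**Figure D1:**
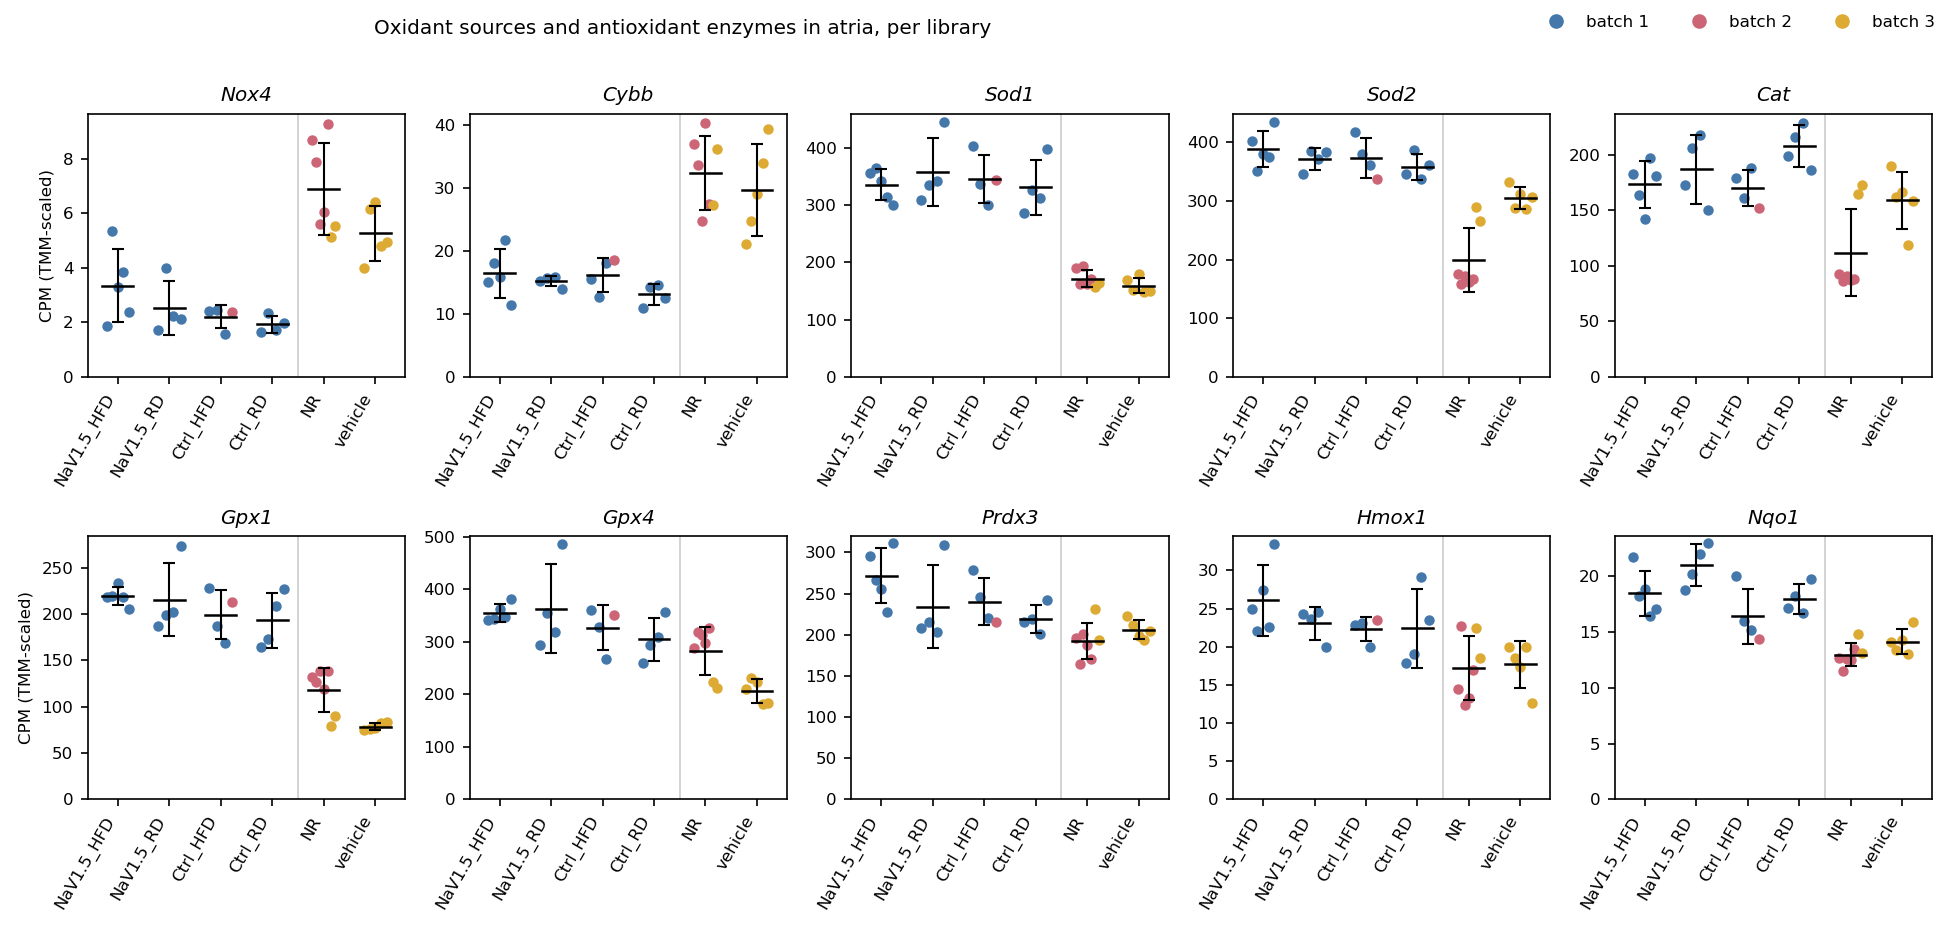
CPM of the 10 genes in every library, by group on the x axis, with the group mean and SD as a black line and bar and the labelled batch as the point colour. NaV1.5_HFD, NaV1.5_RD, Ctrl_HFD and Ctrl_RD overlap in every panel, while the NR libraries of batch 2 stand apart from those of batch 3 for Sod2 and Cat (lower) and for Nox4, Gpx1 and Gpx4 (higher).

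Levels per length spanned a wide range. On the TPM scale, which divides counts by gene length and by library, Ctrl_RD atria had 343 ± 37.3 TPM of Gpx4, the peroxidase that acts on lipid hydroperoxides in membranes (SD, n = 4). Prdx3, the mitochondrial peroxiredoxin, followed at 289 ± 7.04 TPM, and Gpx1, the glutathione peroxidase of cytosol and mitochondria, at 261 ± 38.1 TPM. Sod1, the copper-zinc dismutase of the cytosol, had 162 ± 16.6 TPM, Cat, peroxisomal catalase, had 156 ± 21.5 TPM, and Sod2, the manganese dismutase of mitochondria, had 69.7 ± 3.66 TPM. Both inducible enzymes were lower, Hmox1 at 25.0 ± 6.62 and Nqo1 at 22.5 ± 0.54 TPM, and both oxidases lowest, Cybb at 4.4 ± 0.702 and Nox4 at 0.441 ± 0.0641 TPM. Neighbours in this order whose libraries overlapped were Prdx3 and Gpx1, Sod1 and Cat, and Hmox1 and Nqo1. The order depended on the length used. The count files give Sod1 an exon length of 3970 bases, against 641 bases for its principal transcript, and with principal transcript lengths Sod1 came first at 1002 ± 102 TPM, ahead of Gpx4 at 617 ± 67.0 TPM. Nox4 was last under both lengths, at 0.995 ± 0.144 TPM with the principal transcript.

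**Figure D2:**
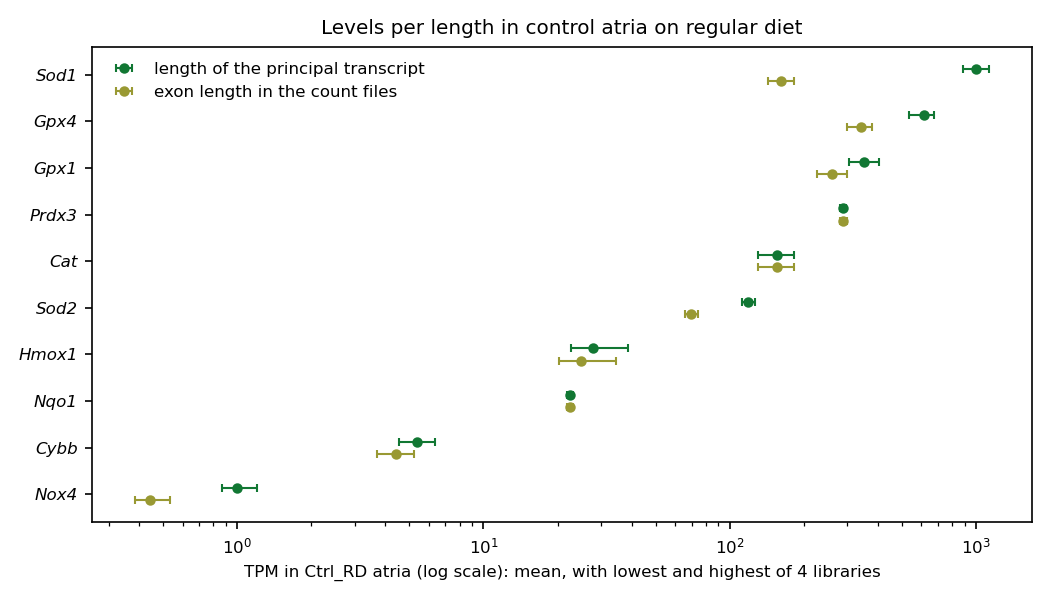
TPM of the 10 genes in Ctrl_RD atria on a log axis, as the mean with the lowest and highest of 4 libraries, for the exon length in the count files and for the principal transcript. The genes run from Nox4 at 0.441 TPM to Gpx4 at 343 TPM with the first length, and Sod1 moves from 162 to 1002 with the second. The second length was used for the 10 genes only, so it gives their order and not a TPM level.

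The 250 bases before the start of 3 of the genes are shown because these genes stand for 3 classes, a phagocyte oxidase (Cybb), a constitutive dismutase (Sod1) and an inducible enzyme (Nqo1). The sequences are from RefSeq, build GRCm38.p6, on the strand of the gene, at chrX:9469325-9469574 (minus strand), chr16:90220512-90220761 (plus strand) and chr8:107403206-107403455 (minus strand). Capitals mark matches, on either strand, to the antioxidant response element core TGACNNNGC, to the AP-1 site TGANTCA, to the CCAAT box, to the Sp1 box GGGCGG and to the TATA box.
Cybb: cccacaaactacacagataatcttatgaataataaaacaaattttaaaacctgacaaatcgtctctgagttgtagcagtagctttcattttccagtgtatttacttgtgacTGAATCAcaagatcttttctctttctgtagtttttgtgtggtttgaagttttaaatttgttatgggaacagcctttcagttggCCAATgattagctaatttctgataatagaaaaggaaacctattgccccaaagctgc
Sod1: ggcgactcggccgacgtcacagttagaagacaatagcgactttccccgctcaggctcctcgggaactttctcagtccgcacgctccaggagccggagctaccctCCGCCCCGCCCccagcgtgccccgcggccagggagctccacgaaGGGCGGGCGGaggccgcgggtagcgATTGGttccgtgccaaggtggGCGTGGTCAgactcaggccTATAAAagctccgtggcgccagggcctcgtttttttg
Nqo1: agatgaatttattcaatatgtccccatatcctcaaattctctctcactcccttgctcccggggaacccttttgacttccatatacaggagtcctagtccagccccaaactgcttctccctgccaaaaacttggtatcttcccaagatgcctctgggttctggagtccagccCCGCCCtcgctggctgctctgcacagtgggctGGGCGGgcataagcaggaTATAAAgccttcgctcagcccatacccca
Of the 10 genes 9 had 12 such windows in all, 4 of them at Gpx4; Hmox1 had none. The Cybb window was 34.0% G and C with 1 CG pair, the Sod1 window 66.4% with 26 and the Nqo1 window 53.2% with 5, against a median of 52.4% over all 32851 windows. The antioxidant response element core, the letters NRF2 binds, was in 10.2% of all windows and, among the windows of the 9 genes, in that of Sod1, 56 bases before the start. The AP-1 site was in 6.75% of all windows and among the 9 genes in that of Cybb, 139 bases before the start. The TATA box, searched as TATAAA, was in 12.4% of all windows, and Nqo1, Sod1 and Prdx3 held it 29, 37 and 239 bases before the start. The Sp1 box was in 32.7% of all windows and in 9 of the 12, and the CCAAT box in 33.8% of all windows and in 7 of the 12. The Gpx4 windows that start at 80053315 and 80053409 share bases, so the same Sp1 and CCAAT letters count in both. In the Sod1 window 2 pairs of Sp1 matches overlap each other. A match is a description of letters and no sign of binding, and letters absent from these windows may lie elsewhere.

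Nox4 (GRCm38 chromosome 7, 87246096 to 87398710, plus strand) encodes an oxidase that is active without a stimulus and releases mainly hydrogen peroxide. Its CPM were 1.87, 5.33, 3.29, 3.85 and 2.38 in NaV1.5_HFD, 1.73, 3.98, 2.23 and 2.13 in NaV1.5_RD, 2.40, 2.45, 1.56 and 2.37 in Ctrl_HFD and 1.64, 2.34, 1.72 and 1.98 in Ctrl_RD. The 4 highest libraries were all from NaV1.5 mice, but each NaV1.5 group also held libraries within the control range. The coefficient of variation was 40.3% in NaV1.5_HFD and 39.5% in NaV1.5_RD, against 19.4% in Ctrl_HFD and 16.5% in Ctrl_RD, and whether the spread differs between genotypes was not tested. These values rest on 24 to 111 counts per library, the fewest of the 10 genes. The log2 difference for genotype on high-fat diet was 0.64 (SE 0.31, 95% interval -0.02 to 1.29, edgeR adjusted p = 0.639). For genotype on regular diet it was 0.40 (interval -0.25 to 1.05), for diet in NaV1.5 atria 0.41 (-0.19 to 1.01) and for diet in control atria 0.18 (-0.52 to 0.87). Single libraries moved these values. Without NaV1.5_HFD replicate 2, the highest Nox4 library, genotype on high-fat diet gave 0.40 and diet in NaV1.5 atria 0.17. Without NaV1.5_RD replicate 2, genotype on regular diet gave 0.08 and diet in NaV1.5 atria 0.73. For diet in control atria the value was 0.34 without Ctrl_HFD replicate 3, and none of these passed the test. Its intervals in the diet experiment were the widest of the 10 genes and reached past a doubling, a log2 difference of 1, in 3 of these 4 comparisons, so a change of that size lies within what these libraries cannot tell from 0.

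Cybb (chromosome X, 9435252 to 9487771, minus strand) encodes the catalytic subunit of NOX2, the oxidase of phagocytes. It had 15, 18.1, 15.9, 21.8 and 11.4 CPM in NaV1.5_HFD, 15.2, 15.7, 15.8 and 14.0 in NaV1.5_RD, 15.5, 12.7, 18.1 and 18.6 in Ctrl_HFD and 10.9, 14.3, 14.6 and 12.5 in Ctrl_RD. NaV1.5_RD was the tightest group, and the lowest library was a Ctrl_RD one. The log2 difference was 0.11 for diet in NaV1.5 atria (interval -0.20 to 0.43), 0.23 for diet in control atria (-0.12 to 0.59), 0.22 for genotype on regular diet (-0.11 to 0.56) and 0.10 for genotype on high-fat diet (-0.24 to 0.45). The summed CPM of 12 macrophage markers, all 12 detected in each group and Cd68, Adgre1 and C1qa among them, ranged from 1032 to 1312 in NaV1.5_HFD, 998 to 1283 in NaV1.5_RD, 897 to 1201 in Ctrl_HFD and 812 to 1197 in Ctrl_RD. Neutrophil markers summed to 7.23 to 22.2 CPM over all 29 libraries, and Ly6g averaged 0.0646 CPM or less in every group. In whole tissue, more cells of a type and more RNA per cell cannot be told apart, and the part of macrophages in the Cybb level was not tested.

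**Figure D3:**
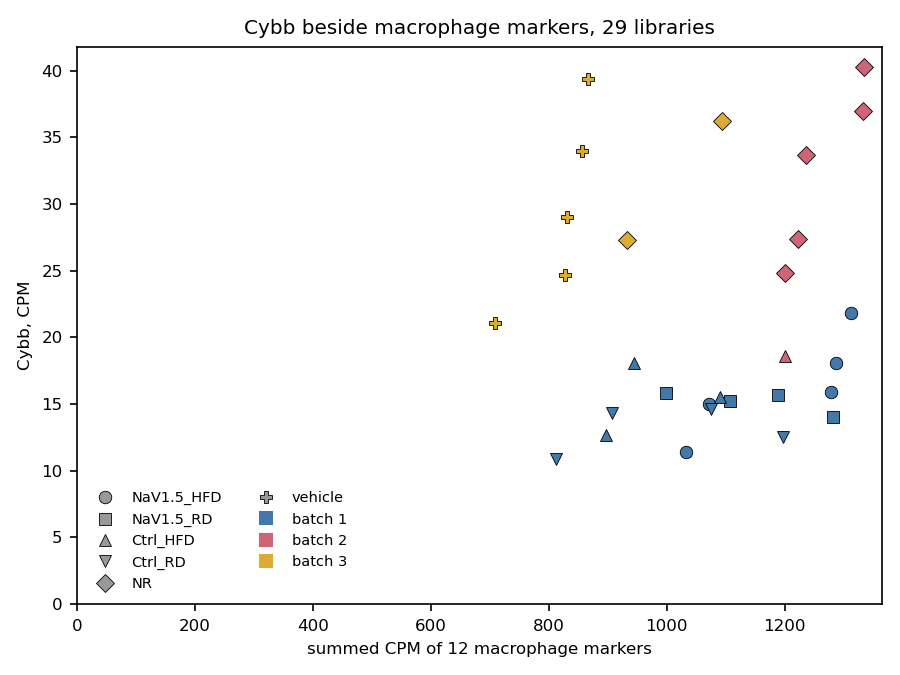
Cybb CPM against the summed CPM of 12 macrophage markers in 29 libraries, with the group as the symbol and the batch as the colour. The vehicle libraries lie at 21.1 to 39.4 CPM of Cybb with marker sums of 708 to 866. The NaV1.5_HFD libraries lie at 11.4 to 21.8 CPM with sums of 1032 to 1312. The NR libraries of batch 2 lie at 24.8 to 40.3 CPM with sums of 1201 to 1334. Those of batch 3 lie at 27.3 and 36.2 CPM with sums of 932 and 1094. Vehicle and NaV1.5_HFD differ in experiment and batch, and their separation in marker sums is shown for CPM alone. Whether Cybb follows the markers was not tested.

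The other subunits of the NADPH oxidases gave 0 calls as well. Of 16 listed genes 9 were tested in the diet experiment, Nox4 and Cybb included. Nox3 had 0 counts in all libraries, which allows up to 0.0907 to 0.227 CPM per library (3 counts, counting error only), and Nox1 had at most 7 counts in a library. For genotype on high-fat diet 8 of the 9 differences were above 0, as were 8285 of all 16168 genes, with a median of 0.24 against 0.01 for all genes. Ncf4, a cytosolic regulator of the phagocyte oxidase, was at 0.52 (SE 0.20, edgeR adjusted p = 0.512). For genotype on regular diet 7 of 9 were above 0 (median 0.21, all genes 0.01), as were 8305 of all 16168 genes. The smallest p there was that of Cyba, the membrane partner of NOX2 and NOX4, at 0.27 (SE 0.11, edgeR adjusted p = 0.782). For diet in NaV1.5 atria the median was 0.11 and for diet in control atria -0.01, against -0.01 and 0 for all genes.

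Sod1 lies on chromosome 16 (90220754 to 90226329, plus strand) and Sod2 on chromosome 17 (13006846 to 13040063, plus strand). Sod1 had 301 to 366 CPM in NaV1.5_HFD (median 342), 310 to 445 in NaV1.5_RD, 300 to 403 in Ctrl_HFD and 287 to 399 in Ctrl_RD. Its log2 differences lay between -0.10 (diet in NaV1.5 atria, interval -0.34 to 0.15) and 0.11 (genotype on regular diet, -0.15 to 0.38). Sod2 had the narrowest intervals of the 10. It had 403, 351, 380, 375 and 434 CPM in NaV1.5_HFD, 346, 386, 371 and 383 in NaV1.5_RD, 417, 380, 361 and 337 in Ctrl_HFD and 346, 387, 337 and 361 in Ctrl_RD. The ranges of all 4 groups overlapped. Its log2 difference was 0.06 for diet in NaV1.5 atria (interval -0.11 to 0.23), 0.11 for diet in control atria (-0.09 to 0.30), 0.06 for genotype on regular diet (-0.12 to 0.24) and 0.01 for genotype on high-fat diet (-0.18 to 0.19). The extracellular dismutase Sod3 and the copper chaperone Ccs, the other listed genes of this class, were not called either, Sod3 at 0.38 (SE 0.20, edgeR adjusted p = 0.699) for genotype on high-fat diet and Ccs at -0.20 (SE 0.08, adjusted p = 0.178) for diet in NaV1.5 atria.

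Among the enzymes that remove peroxide, Prdx3 was the one whose call depended on a single library. The gene lies on chromosome 19 (60864051 to 60874556, minus strand). Its CPM were 296, 266, 256, 228 and 312 in NaV1.5_HFD, against 208, 215, 203 and 309 in NaV1.5_RD. Replicate 4 of NaV1.5_RD lay with the highest NaV1.5_HFD libraries, and the other NaV1.5_RD libraries lay below every NaV1.5_HFD library. Prdx3 had 279, 246, 220 and 216 CPM in Ctrl_HFD and 216, 219, 201 and 242 in Ctrl_RD. With all libraries the log2 difference for diet in NaV1.5 atria was 0.21 (SE 0.12, interval -0.04 to 0.47, edgeR adjusted p = 0.36), and for diet in control atria 0.17 (SE 0.14, -0.12 to 0.46, adjusted p = 0.737). Without NaV1.5_RD replicate 4 the difference in NaV1.5 atria was 0.38 (SE 0.10, edgeR adjusted p = 0.0323), in a fit that called 6.92% of all genes. With quality weights in limma-voom, which keep that library at a weight set by its fit, it was 0.32 (SE 0.09, adjusted p = 0.0325), in a fit that called 12.1% of all genes. Replicate 4 had the highest value of its group for 5 of the 10 genes, with 445 CPM of Sod1, 274 of Gpx1, 485 of Gpx4 and 23 of Nqo1 beside Prdx3. The interaction of genotype and diet for Prdx3 was 0.04 (interval -0.35 to 0.43).

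Cat lies on chromosome 2 (103453849 to 103485160, minus strand). It had 183, 164, 142, 197 and 181 CPM in NaV1.5_HFD, against 173, 206, 218 and 150 in NaV1.5_RD. It had 179, 161, 188 and 152 CPM in Ctrl_HFD, against 199, 216, 229 and 186 in Ctrl_RD. In control atria a single Ctrl_HFD library (replicate 3) reached into the Ctrl_RD range. The log2 difference was -0.24 for diet in control atria (SE 0.13, interval -0.51 to 0.03, edgeR adjusted p = 0.615) and -0.11 for diet in NaV1.5 atria (-0.35 to 0.13). Catalase is also abundant in red cells, whose 7 markers, Hbb-bs and Alas2 among them, summed to 932 to 3128 CPM in NaV1.5_HFD, 446 to 2827 in NaV1.5_RD, 612 to 850 in Ctrl_HFD and 456 to 1724 in Ctrl_RD; their part in these levels was not tested.

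Gpx1 lies on chromosome 9 (108338903 to 108340343, plus strand) and Gpx4 on chromosome 10 (80047166 to 80056439, plus strand). Gpx1 had 206 to 234 CPM in NaV1.5_HFD (median 219), 187 to 274 in NaV1.5_RD, 169 to 228 in Ctrl_HFD and 164 to 227 in Ctrl_RD. Gpx4 had 342, 343, 363, 346 and 382 CPM in NaV1.5_HFD, 294, 354, 319 and 485 in NaV1.5_RD, 361, 328, 267 and 351 in Ctrl_HFD and 259, 293, 308 and 357 in Ctrl_RD. For both genes NaV1.5_HFD was the tightest group and NaV1.5_RD the widest. The log2 difference of Gpx4 for genotype on regular diet was 0.26 (SE 0.14, interval -0.03 to 0.54, edgeR adjusted p = 0.837) and on high-fat diet 0.16 (-0.14 to 0.45). For Gpx1 both were close to this, 0.16 (-0.10 to 0.42) on regular diet and 0.17 (-0.10 to 0.45) on high-fat diet. The difference for diet in NaV1.5 atria was 0.02 for Gpx1 (-0.23 to 0.27) and -0.04 for Gpx4 (-0.31 to 0.23). With edgeR and all libraries, no gene among the listed peroxidases, peroxiredoxins, thioredoxins and their reductases was called for diet, genotype, their interaction or NR. The calls of Prdx3 under other settings are given above, and calls between batches below.

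Hmox1 (75093621 to 75100589, plus strand) and Nqo1 (107388225 to 107403206, minus strand) both lie on chromosome 8. Hmox1, which breaks down haem, had 25.0, 22.0, 27.4, 22.6 and 33.4 CPM in NaV1.5_HFD, 24.3, 23.6, 24.5 and 19.9 in NaV1.5_RD, 22.8, 23.1, 20 and 23.5 in Ctrl_HFD and 17.9, 19, 29.2 and 23.5 in Ctrl_RD. A NaV1.5_HFD library was highest, and a Ctrl_RD library lowest and another the next highest. Its log2 difference was 0.24 for genotype on high-fat diet (interval -0.07 to 0.56) and 0.17 for diet in NaV1.5 atria (-0.12 to 0.46). Nqo1, which reduces quinones to hydroquinones, had 21.7, 18.2, 18.9, 16.4 and 17.1 CPM in NaV1.5_HFD, 18.8, 20.2, 22.0 and 23 in NaV1.5_RD, 20, 16, 15.2 and 14.4 in Ctrl_HFD and 17.2, 18.2, 16.7 and 19.8 in Ctrl_RD. NaV1.5_RD held the 2 highest values, and 1 of its libraries lay within the Ctrl_RD range. The log2 difference of Nqo1 was 0.23 for genotype on regular diet (SE 0.11, interval 0.00 to 0.45, unadjusted p = 0.0499, edgeR adjusted p = 0.817) and -0.19 for diet in NaV1.5 atria (SE 0.10, -0.40 to 0.02, adjusted p = 0.32). Of 29 listed genes for NRF2, its regulators and targets, 0 were called for diet, genotype, their interaction or nicotinamide riboside. Their median for diet in NaV1.5 atria was 0.01 against -0.01 for all genes. Keap1 was at -0.25 (SE 0.08, edgeR adjusted p = 0.103) for diet in NaV1.5 atria, and Gclm, a subunit of the enzyme that starts glutathione synthesis, at 0.20 (SE 0.09, adjusted p = 0.809) for genotype on regular diet.

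Over the 10 genes, the median log2 difference was 0.04 for diet in NaV1.5 atria, 0.06 for diet in control atria, 0.14 for genotype on regular diet and 0.12 for genotype on high-fat diet, where all genes gave -0.01, 0, 0.01 and 0.01. For genotype on regular diet 9 of 10 differences were above 0, Cat excepted, as were 8305 of all 16168 genes. For genotype on high-fat diet 8 of 10 were, Sod1 and Cat excepted, and 8285 of all genes. For the interaction 5 of 10 were above 0 (7773 of all genes), with a median of -0.02 against -0.01 for all genes. The comparisons share groups and the 10 genes share libraries, so these signs are not independent. Every interval spanned 0 except that of Nqo1 for genotype on regular diet, whose lower bound rounds to 0.00. Leaving out Nox4, the outer bounds of the intervals over the 4 comparisons of the diet experiment were -0.51 (Cat) and 0.59 (Cybb).

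**Figure D4:**
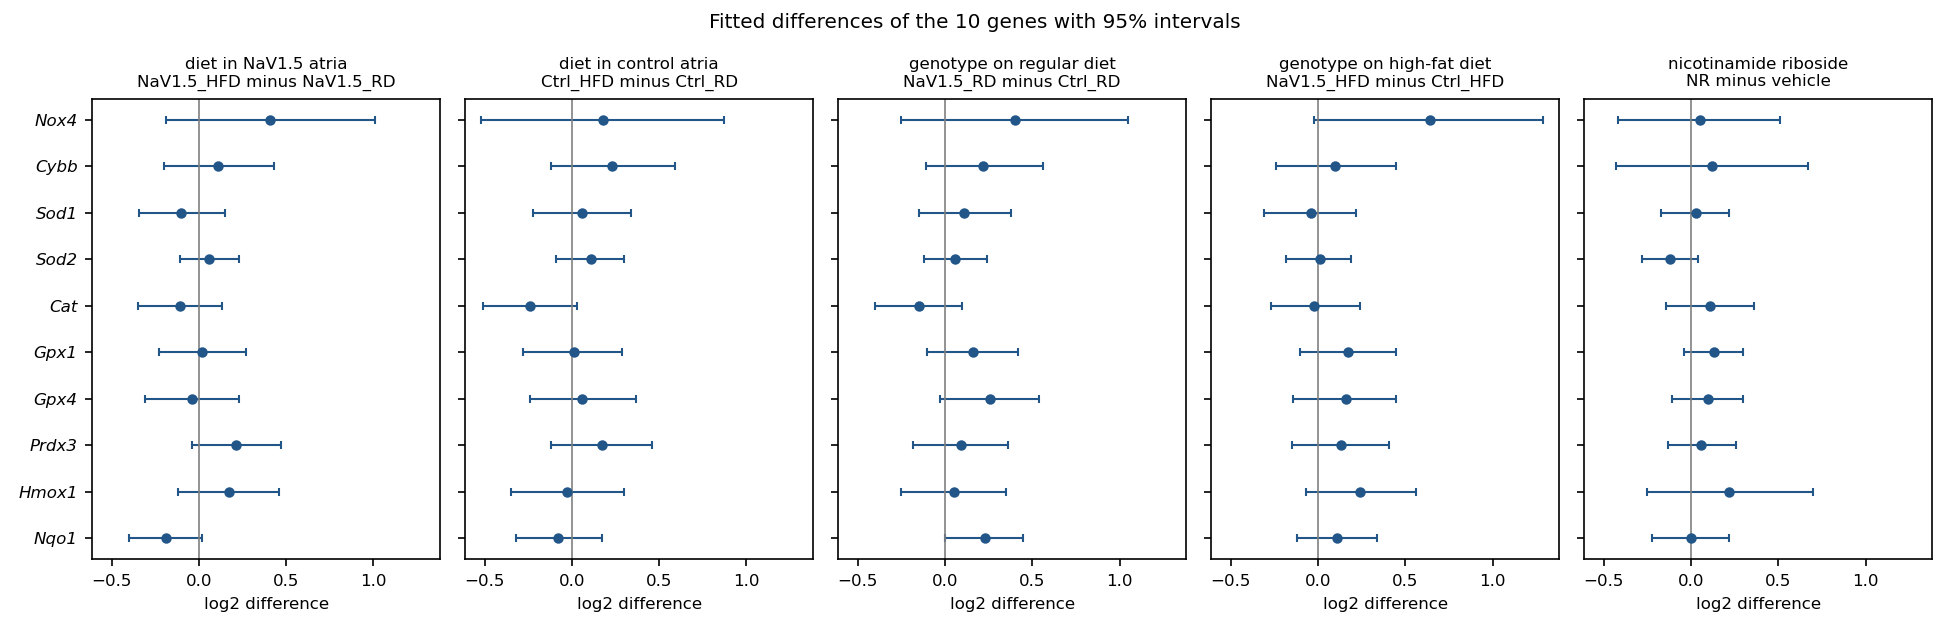
Log2 differences of the 10 genes with 95% intervals in 5 comparisons, each the first group named minus the second. Every interval spans 0 but that of Nqo1 for genotype on regular diet, with a lower bound that rounds to 0.00, and those of Nox4 in the diet experiment are the widest, up to 1.29.

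Genes that supply NADPH held the only calls among the 102 other pathway genes tested in the diet experiment, and those for diet in NaV1.5 atria alone. Aldh1l1, the cytosolic 10-formyltetrahydrofolate dehydrogenase, had 2.61, 2.02, 2.17, 2.43 and 2.60 CPM in NaV1.5_HFD, against 5.09, 3.34, 4.85 and 4.05 in NaV1.5_RD. Aldh1l2, its mitochondrial counterpart, had 11.9, 12.5, 7.87, 8.11 and 11.8 CPM in NaV1.5_HFD, against 7.49, 5.82, 6.70 and 7.07 in NaV1.5_RD. Neither pair of groups overlapped, as was the case for 5.86% of all genes, and the directions were opposite. Aldh1l1 fell by 0.88 on the log2 scale (SE 0.17, edgeR adjusted p = 0.0258) and Aldh1l2 rose by 0.62 (SE 0.15, adjusted p = 0.0479), 2 of 15 genes of NADPH supply, where 1.13% of all genes were called. In control atria the same contrast gave -0.73 for Aldh1l1 (SE 0.19, edgeR adjusted p = 0.48) and 0.51 for Aldh1l2 (SE 0.16, adjusted p = 0.523), neither called. Mthfd2, a mitochondrial folate enzyme, was at 0.93 there (SE 0.23, adjusted p = 0.48), not called either. It had 9.08, 13.6, 8.25, 7.5 and 11.5 CPM in NaV1.5_HFD, against 7.4, 4.84, 5.55 and 5.37 in NaV1.5_RD. That diet difference in NaV1.5 atria was not called, and the interaction for Mthfd2 was -0.15 (SE 0.31). For diet, 6 of 15 genes of NADPH supply had an unadjusted edgeR p of at most 0.05 in each genotype. All genes gave 18.9% in NaV1.5 atria and 8.49% in control atria. The interaction of genotype and diet was -0.15 for Aldh1l1 (SE 0.26, edgeR adjusted p = 1) and 0.10 for Aldh1l2 (SE 0.22, adjusted p = 1). DESeq2 kept both calls (adjusted p = 0.000913 for Aldh1l1 and 0.00666 for Aldh1l2). Both fell short of the threshold with offsets for GC content and length (adjusted p = 0.0705 and 0.0863), with the title number as a replicate block (0.0673 and 0.0746), and on leaving out NaV1.5_HFD replicate 2 (0.0741 for Aldh1l1, 0.127 for Aldh1l2) or replicate 3 (0.0787 and 0.0602) and NaV1.5_RD replicate 1 (0.0657 and 0.0696) or replicate 3 (0.0989 and 0.133). The Aldh1l2 call alone was also lost without a batch term (0.0719), without NaV1.5_HFD replicate 1 (0.0772) or replicate 5 (0.0882) and without NaV1.5_RD replicate 2 (0.142). The size of the difference stayed between -0.98 and -0.76 for Aldh1l1 and between 0.54 and 0.70 for Aldh1l2 over all these settings. Of 11 marker lists, that of atrial cardiomyocytes alone did not overlap between these groups, with sums of 44538 to 49166 CPM in NaV1.5_HFD and 50146 to 62017 in NaV1.5_RD (all 8 markers detected). Adipocyte markers summed to 18.7 to 29.7 CPM in NaV1.5_HFD and 16.4 to 58.6 in NaV1.5_RD. The part of either in these differences was not tested.

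Nicotinamide riboside was compared with vehicle in NaV1.5 mice on high-fat diet, and with batch in the model none of the 10 genes passed the test. Sod2 had 290 and 265 CPM in NR of batch 3, against 333, 288, 311, 287 and 306 in vehicle. Cat had 165 and 173 CPM in NR of batch 3, against 190, 162, 166, 119 and 158 in vehicle. Gpx1 had 79.4 and 90.0 CPM in NR of batch 3, against 74.4, 75.4, 76.9, 82.2 and 83.7 in vehicle. Each pair of groups overlapped. Gpx4 had 223 and 211 CPM in NR of batch 3, against 182 to 231 in vehicle, and Prdx3 had 231 and 194, against 194 to 223. Hmox1 had 22.4 and 18.5 CPM in NR of batch 3, against 12.6 to 20 in vehicle, and Nqo1 had 14.8 and 13.1, against 13 to 15.9. Nox4 had 5.13 and 5.54 CPM in NR of batch 3, against 3.97 to 6.41 in vehicle, and Cybb had 27.3 and 36.2, against 21.1 to 39.4. Sod1 had 157 and 164 CPM in NR of batch 3, against 149 to 179 in vehicle. Of the NR libraries of batch 3, replicate 7 lay below all vehicle libraries for Sod2 and above them for Gpx1, and replicate 6 lay above them for Prdx3 and Hmox1. With batch in the model the log2 difference of NR minus vehicle was -0.12 for Sod2 (SE 0.08, interval -0.28 to 0.04, edgeR adjusted p = 0.638), 0.11 for Cat (-0.14 to 0.36), 0.13 for Gpx1 (-0.04 to 0.30), 0.10 for Gpx4 (-0.11 to 0.30), 0.06 for Prdx3 (-0.13 to 0.26) and 0.03 for Sod1 (-0.17 to 0.22). The inducible enzymes gave 0.22 for Hmox1 (-0.25 to 0.70) and 0.00 for Nqo1 (-0.22 to 0.22), and the oxidases 0.05 for Nox4 (-0.42 to 0.51) and 0.12 for Cybb (-0.43 to 0.67). Of 103 other pathway genes tested 0 were called with edgeR, and 13 had an unadjusted p of at most 0.05, where 11.1% of all genes did. The smallest p were those of G6pdx, the enzyme that opens the pentose phosphate pathway, at 0.33 (SE 0.09, edgeR adjusted p = 0.162), and of Slc3a2, the partner of the cystine transporter, at 0.22 (SE 0.07, adjusted p = 0.169). Nfe2l2 was at 0.25 (SE 0.09, adjusted p = 0.281) and the oxidase subunit Ncf1 at 0.43 (SE 0.14, adjusted p = 0.226). Below 0 were Acsl4 at -0.31 (SE 0.10, edgeR adjusted p = 0.204) and Sesn3 at -0.28 (SE 0.09, adjusted p = 0.242). The cystine transporter itself, Slc7a11, was at -1.24 (SE 0.53, adjusted p = 0.394). Of the 103 genes, 46 had a difference above 0 and 57 below 0.

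The NR libraries themselves fell apart by batch. Sod2 had 176, 158, 172, 162 and 167 CPM in NR of batch 2, against 290 and 265 in NR of batch 3. Cat had 92.2, 85.9, 90.8, 87.5 and 88.1 CPM in NR of batch 2, against 165 and 173 in NR of batch 3. Gpx1 had 132, 127, 139, 119 and 139 CPM in NR of batch 2, against 79.4 and 90.0 in NR of batch 3, and Gpx4 had 288, 318, 312, 298 and 325, against 223 and 211. For these 4 genes no library of one batch reached the range of the other. Batch 2 minus batch 3 gave a log2 difference of -0.95 for Cat (SE 0.11, edgeR adjusted p = 6.02e-06), -0.75 for Sod2 (SE 0.07, adjusted p = 4.74e-07), 0.61 for Gpx1 (SE 0.08, adjusted p = 2.17e-05), 0.48 for Gpx4 (SE 0.10, adjusted p = 0.00073) and -0.23 for Prdx3 (SE 0.09, adjusted p = 0.0437). That is 5 of 10 genes called, 2 higher and 3 lower, where 49.7% of all genes were called, 24.7% higher and 25% lower, and the median size of the difference was 0.42 for the 10 genes and 0.43 for all genes. Nox4, at 8.69, 7.89, 5.59, 6.04 and 9.25 CPM in NR of batch 2 against 5.13 and 5.54 in NR of batch 3, differed by 0.47 (SE 0.22, adjusted p = 0.0859). Without overlap were 5 of 10 genes, as were 58.6% of all genes.

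**Figure D5:**
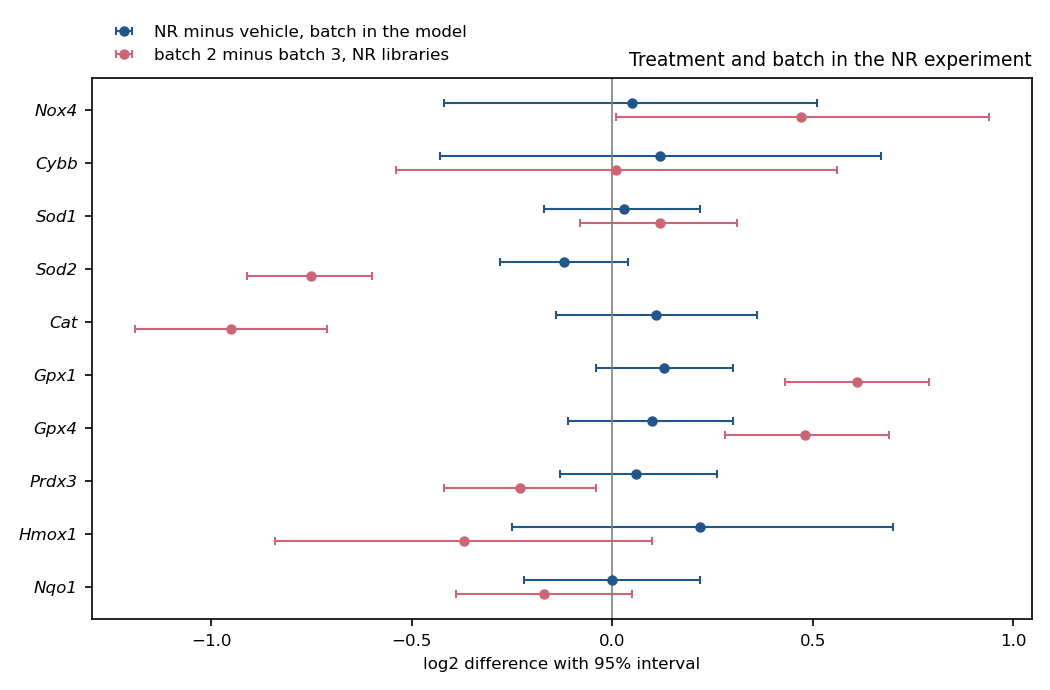
Log2 differences with 95% intervals for NR minus vehicle with batch in the model (blue) and for batch 2 minus batch 3 within the NR libraries (red). Cat at -0.95, Sod2 at -0.75, Gpx1 at 0.61 and Gpx4 at 0.48 lie away from 0 for batch, while all 10 intervals for NR reach 0.

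The outcome for NR therefore turned on how batch was handled. Without a batch term 3 of 10 genes were called (26.6% of all genes), Sod2 at -0.61 (SE 0.17, edgeR adjusted p = 0.0246), Gpx1 at 0.59 (SE 0.14, adjusted p = 0.0176) and Gpx4 at 0.46 (SE 0.13, adjusted p = 0.027). With NR of batch 2 alone against vehicle 6 of 10 were called (60.4% of all genes), and 4 did not overlap in CPM (45.4% of all genes). In that pairing Cat was at -0.85 (SE 0.09, adjusted p = 2.54e-06) and Prdx3 at -0.18 (SE 0.07, adjusted p = 0.0301), both of the opposite sign to the fit with batch. Vehicle has no library in batch 2, so in that pairing batch and treatment cannot be told apart. With the title number as a block in place of batch 7 of 10 were called (58.8% of all genes). No vehicle library has the number 6 or 7, so that fit again sets NR of batch 2 against vehicle of batch 3. There too batch and treatment cannot be told apart. Cell markers moved with the batch as well, and the sums of 9 of 11 lists did not overlap between NR of batch 2 and NR of batch 3. Atrial cardiomyocyte markers were lower, at 18128 to 22426 CPM in NR of batch 2, against 26228 and 32580 in NR of batch 3, as were those of ventricular cardiomyocytes (184 to 435 against 477 and 880) and of smooth muscle and pericytes (382 to 523 against 569 and 729). Red-cell markers were higher, at 2239 to 4958 CPM in NR of batch 2, against 1366 and 1766 in NR of batch 3, as were those of macrophages (1201 to 1334 against 932 and 1094) and mesothelium (1259 to 1872 against 282 and 568). Fibroblast markers (4147 to 4800 CPM in NR of batch 2, against 3324 and 3748 in NR of batch 3), endothelial markers (1774 to 2109 against 1189 and 1383) and lymphocyte markers (15 to 37.1 against 7.93 and 9.54) were higher too. Ctrl_HFD replicate 4 is also in batch 2, with another genotype and in the diet experiment. It lay outside the NR batch 2 ranges for atrial (48253 CPM), mesothelial (566), red-cell (850), fibroblast (2543), endothelial (1158) and lymphocyte markers (13.8). It lay within or at the edge of them for macrophage (1201), ventricular (420) and smooth muscle and pericyte markers (468). The part of these cells in the differences between batches was not tested.

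The vehicle libraries of the supplementation experiment and the NaV1.5_HFD libraries of the diet experiment share genotype and diet, and they differed widely in level. Sod1 averaged 160 ± 13.8 CPM in vehicle (SD, n = 5) and 336 ± 27.7 in NaV1.5_HFD (n = 5), and Gpx1 averaged 78.5 ± 4.19 CPM in vehicle and 219 ± 10.1 in NaV1.5_HFD. Cybb averaged 29.6 ± 7.26 CPM in vehicle and 16.5 ± 3.87 in NaV1.5_HFD, and Nox4 5.25 ± 1.01 in vehicle and 3.34 ± 1.35 in NaV1.5_HFD. In CPM 7 of 10 genes were lower in every vehicle library than in every NaV1.5_HFD library and 0 were higher, where 53.7% of all genes did not overlap in either direction. The ratio of vehicle to NaV1.5_HFD depended on the scale, and for all 10 genes it was higher in TPM than in CPM. Gene length cancels in this ratio, so the scale shifts all genes of a library alike. Of the 7 genes, Sod2 had a ratio of 0.785 in CPM and 1.16 in TPM, Prdx3 0.76 and 1.13, and Nqo1 0.766 and 1.14. Hmox1 was at 0.678 in CPM and 1.0 in TPM. Lower on both scales were Sod1 (0.475 in CPM and 0.701 in TPM), Gpx1 (0.358 and 0.529) and Gpx4 (0.579 and 0.855). Vehicle lies in batch 3 and NaV1.5_HFD in batch 1, and the labels name a vehicle for the first group only. Experiment, batch and the giving of vehicle therefore cannot be told apart, and no test was made between the groups. Atrial cardiomyocyte markers summed to 26012 to 33918 CPM in vehicle and 44538 to 49166 in NaV1.5_HFD, macrophage markers to 708 to 866 in vehicle and 1032 to 1312 in NaV1.5_HFD, and mesothelial markers to 290 to 403 in vehicle and 489 to 660 in NaV1.5_HFD. None of these ranges overlapped in CPM. The change of scale raises the ratio of vehicle to NaV1.5_HFD for each marker gene too, as it took Prdx3 from 0.76 to 1.13. The separation of these sums is therefore shown for CPM alone, and whether they stay apart in TPM was not looked at. The part of these cells in the differences was not tested.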

How the data were processed

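The data are counts of read pairs per gene name in 29 libraries of atrial polyadenylated RNA. Per the file headers, the authors made these counts with featureCounts 2.0.1 on paired reads, without a strand option, and pairs over several genes or places were not counted. The submitters' processing notes list STAR 2.7.6a, FastQC 0.11.7 and the builds GRCm38 and mm10. No exon base of the 10 genes is shared with another gene of the count files. The files held 0 identical pairs of libraries within a group and 0 columns without a sample.

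CPM were computed from the deposited counts with TMM factors, and TPM from counts and the length column. Genes were tested in R 4.3.3 with edgeR 4.0.16 (filterByExpr with a minimum count of 10, TMM, robust quasi-likelihood F-test, 2-sided, Benjamini-Hochberg over all genes tested), with group and batch as terms, 17 libraries in the diet fit and 12 in the NR fit. SE is the absolute log2 difference over the square root of F, and the 95% intervals use the degrees of freedom of that test. Alternatives were DESeq2 1.42.0, limma 3.58.1 (voom with quality weights), DESeq2 size factors, other count filters, no batch term, single batches, the title number as a block, and each library left out. Offsets for GC content and length, principal transcript lengths and the batch contrast were added after the data were seen. The fit was tested on simulated data. Figures were drawn with matplotlib 3.10.9.

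The 10 genes and all lists were chosen with earlier results of these data known. Named pathway genes are, per list, up to 4 with the smallest p among those called, or up to 2 where none was. The titles of Ctrl_RD replicate 1 and NaV1.5_RD replicate 4 hold no number; theirs are names only. Intervals and limits of counts of 0 cover counting error or the spread between libraries only. Some results are not reported here.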

Additional observations from a re-analysis of the deposited data

Results flagged for a closer look

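Of 60 pairs of gene and group, 2 held a library far from the rest of its group; about 1 in 20 would by chance. Nox4 had 1.56 CPM in Ctrl_HFD replicate 3, below the other Ctrl_HFD libraries at 2.37 to 2.45 CPM. Prdx3 had 309 CPM in NaV1.5_RD replicate 4, above the other NaV1.5_RD libraries at 203 to 215 CPM, and the diet difference of Prdx3 in NaV1.5 atria without that library stands beside its result.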

How the results depend on the processing

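For the 10 genes, 1180 values were computed under 26 alternatives in the diet comparisons and 22 in the NR comparison; 94 had the other sign and 18 passed the threshold. Called with the other sign in the NR comparison were Cat (-0.85) and Prdx3 (-0.18) with NR of batch 2 against vehicle, and Cat (-0.83) and Prdx3 (-0.17) with the replicate block; the batch term could not be kept there. The replicate block, which for NR also sets batch 2 against vehicle of batch 3, called 7 of the 10 genes, 71 other pathway genes and 9694 genes. Same-numbered libraries did not deviate together (correlations -0.08 to 0.15), so numbers were not taken as pairs. For diet in NaV1.5 atria the block called 0 pathway genes and 27 genes, for genotype on regular diet 1 gene and on high-fat diet 8. For NR, 3 of the 10 genes, 36 pathway genes and 4392 genes were called without a batch term, and 6, 71 and 9851 with NR of batch 2 against vehicle; 254 genes were called with DESeq2, 140 with no filter, 18 in batch 3 alone and 10 with GC and length offsets. For diet in NaV1.5 atria (182 genes), DESeq2 called 849 genes and 6 pathway genes, limma-voom 1950, 15 and 1 of the 10, GC and length offsets 70 and 0, and no batch term 1 pathway gene. For diet in control atria (0 genes), limma-voom called 75 genes and 1 pathway gene, DESeq2 19, no filter 5, and no batch term and GC and length offsets 1 each. For genotype on regular diet (2 genes), DESeq2 called 27, limma-voom 15 and no filter 10; on high-fat diet (14 genes), limma-voom called 124, DESeq2 90, no filter 43 and no batch term 31. The cause was not tested. With each library left out in turn, diet in NaV1.5 atria called 4 (without NaV1.5_RD replicate 3) to 1138 genes (without NaV1.5_RD replicate 4), 0 to 7 pathway genes and 0 to 1 of the 10. Genotype on regular diet called 1 to 5 genes, genotype on high-fat diet 2 to 14 and NR 1 to 66, with 0 pathway genes and 0 of the 10 in these comparisons; diet in control atria and the interaction called 0 genes throughout. The number of libraries limits these comparisons, and 2 NR libraries share a batch with vehicle. For Nox4, depth limits too, at 24 to 301 counts per library.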

Other observations

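Nnt encodes the mitochondrial transhydrogenase that makes NADPH from NADH, and it was picked out here after its values were seen. It had 81.2, 75.3, 69.3, 69.9 and 80.4 CPM in NR of batch 2, against 220 and 188 in NR of batch 3. The vehicle libraries had 200 to 230 CPM and the 17 libraries of the diet experiment 119 to 267 CPM. All NR libraries of batch 2 thus lay below every other library, including Ctrl_HFD replicate 4 of the same batch, at 130 CPM. Such a split was common, as 58.6% of all genes did not overlap between NR of batch 2 and NR of batch 3. Between NR of batch 2 and vehicle 45.4% did not overlap. Vehicle has no library in batch 2, so there batch and treatment cannot be told apart. With batch in the model the log2 difference of NR minus vehicle was -0.05 (SE 0.09, edgeR adjusted p = 0.895).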
